A study of Homo sapiens with 4 samples.

Results

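The human metallothionein genes and 3 genes of zinc handling were followed in SK-N-BE(2) cells, an established neuroblastoma line with an amplified MYCN gene. The 10 genes are MT1E, MT1F, MT1G, MT1M, MT1X, MT2A and MT3, the metal-responsive transcription factor MTF1, the zinc exporter SLC30A1 and the zinc importer SLC39A10. They were chosen by name and role, with their counts in the comparison of shCDK5RAP3 with shControl in view, and make up 10 of the 64252 rows of the count table. Their levels and changes are therefore given as a description, without p-values. The groups were 2 libraries of cells transfected with a control short hairpin RNA, shControl, and 2 libraries of cells with a hairpin against CDK5RAP3, shCDK5RAP3, with no other treatment in the labels. CDK5RAP3 encodes a protein of the machinery that attaches the small modifier UFM1 to other proteins. The labels do not say whether replicates came from separate cultures, whether several hairpins were used or how long after transfection the cells were harvested, so p-values measure only the spread between these libraries. In such bulk RNA, fewer cells expressing a gene and less of its RNA in each cell cannot be told apart.

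Metallothioneins are small cysteine-rich proteins that bind zinc and copper ions and buffer their free concentration in the cell. Most human metallothionein genes lie side by side in a cluster on chromosome 16. When free zinc rises, the zinc finger protein MTF1 binds short promoter sequences called metal response elements and switches on the metallothionein genes and SLC30A1, the exporter ZnT1 of the plasma membrane. SLC39A10, the importer ZIP10, works in the opposite direction and is known to be repressed when zinc is plentiful. MT3 differs from the other forms in being found mainly in the brain.

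Promoters were searched for the core of the metal response element, spelled TGCACNC or TGCGCNC, on both strands of the 250 bases before each RefSeq transcription start in GRCh38.p14. A window was available for 5 of the 10 genes, MT1X, MT2A, MTF1, SLC30A1 and SLC39A10, and for 5 of the 12 annotated metallothioneins. MT1X held 4 matches and MT2A held 7. Of 35116 such windows of the same length, 24.8% held at least 1 match, 0.37% held at least 4 and 0.0313% held at least 7. The letters are shown for MT1X, which made up most of the gain in metallothionein counts described below, and for MT1H, whose promoter held 8 matches while the gene had no counts. Matches are in capitals, each sequence reads 5′ to 3′ on the strand of its gene, and both stretches lie directly before the first annotated base of the gene in GENCODE 29.
MT1X, chr16:56682220-56682423, plus strand: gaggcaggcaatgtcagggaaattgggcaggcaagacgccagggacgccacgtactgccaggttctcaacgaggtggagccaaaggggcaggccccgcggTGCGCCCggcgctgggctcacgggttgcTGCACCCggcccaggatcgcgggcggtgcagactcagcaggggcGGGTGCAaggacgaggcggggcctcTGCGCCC
MT1H, chr16:56669564-56669813, plus strand: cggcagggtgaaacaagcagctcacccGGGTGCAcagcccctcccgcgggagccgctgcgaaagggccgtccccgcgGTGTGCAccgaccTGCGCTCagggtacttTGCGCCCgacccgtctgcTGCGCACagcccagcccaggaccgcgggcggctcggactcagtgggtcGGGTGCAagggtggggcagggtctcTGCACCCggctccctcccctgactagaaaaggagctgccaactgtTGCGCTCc

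The 2 promoters share an arrangement close to the start. In both, a match on the strand of the gene begins 53 bases before the RefSeq start and a match on the opposite strand begins 78 bases before it. MT1B, which also had no counts, carried its nearest pair at 53 and 79 bases, and MT2A at 54 and 88 bases, apart from a further match 8 bases before the start in MT2A and in MT1H. These MT2A sites are upstream of the RefSeq start but inside the transcribed span of the longer GENCODE gene model, which begins at chr16:56608199. SLC30A1 had 1 match, on the opposite strand and 49 bases before its start. Sites of MT2A, MT1B and SLC30A1 named above are set below each other, with the 7-base match in capitals.
MT2A, chr16:56608520-56608546, plus strand: gcggggctttTGCACTCgtcccggctc
MT1B, chr16:56651823-56651849, plus strand: gcggggcctcTGCACCCcaccacctcc
MT2A, chr16:56608486-56608512, plus strand: agcgcggggcGTGTGCAggcagcgccc
SLC30A1, chr1:211579194-211579220, minus strand: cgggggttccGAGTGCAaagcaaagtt

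MTF1 had no match in its window, and SLC39A10 had none in either of its 2 windows. Both SLC39A10 windows lie inside the transcribed span of the longer GENCODE gene model, which begins at chr2:195575977. The bases before that start were not searched, and each window covered only bases before its own RefSeq start. The absence of matches therefore holds for these windows only. With the shorter 5-base core, TGCAC or TGCGC, the second SLC39A10 window held 3. MT4, the remaining metallothionein with a window, held 3 matches to the longer core. The windows of MT1X, MT2A and SLC30A1 held matches and the 3 genes had more counts in the shCDK5RAP3 libraries. MTF1 had more counts there without a match, and MT1H, MT1B and MT4 had 3 to 8 matches and no counts in any library. Of other SLC30 genes with more counts in shCDK5RAP3, SLC30A3 had 2 and 1 matches in its windows, SLC30A6 had 1, and SLC30A5 and SLC30A7 had 0. SLC30A4 with 1 match and SLC30A9 with 0 had fewer counts in shCDK5RAP3, and SLC30A2 had 3 matches and no counts. At least 1 match was held by 24.8% of all windows. Whether matches bear on the changes was not tested. A match describes letters only, and binding of MTF1 was not measured.

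**Figure D1:**
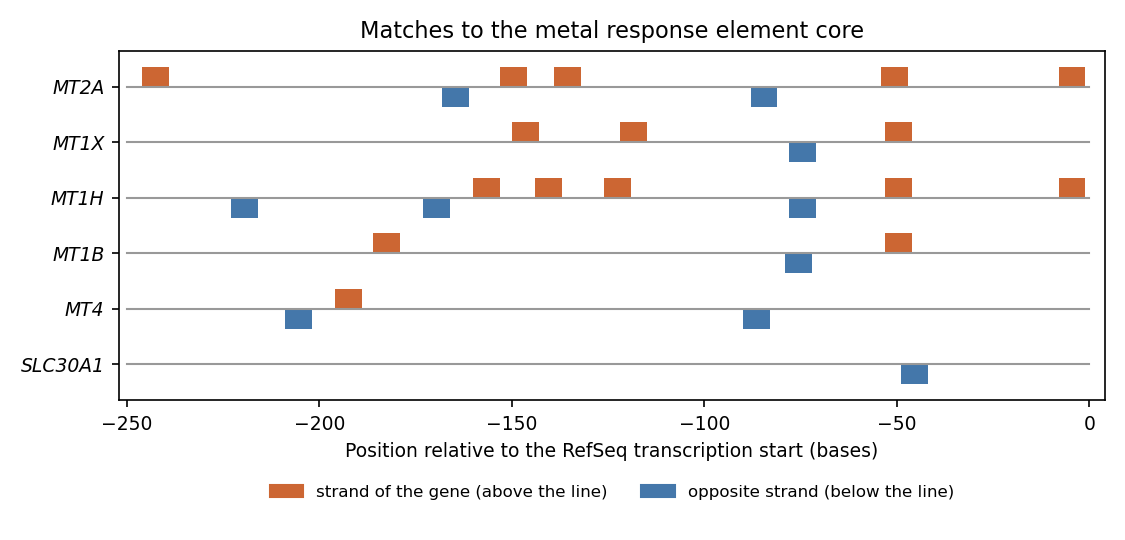
Matches to the metal response element core in the 250 bases before the RefSeq start of 6 genes, plotted by position in bases relative to the start, with boxes above the line for the strand of the gene and below it for the opposite strand. MT1H has 8 boxes, MT2A 7, MT1X 4, MT1B and MT4 3 each and SLC30A1 1, and in MT2A, MT1X, MT1H and MT1B a box above the line begins 53 or 54 bases before the start.

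The libraries held 28653689 to 30138393 counts each, so that 1 count corresponded to 0.0338 to 0.035 CPM (counts scaled to a common library size with TMM factors). A gene with 0 counts in a library could hold up to 3, a limit of 0.101 to 0.105 CPM that covers counting error only. CDK5RAP3 had 2529 and 2866 counts in shControl and 1669 and 1689 in shCDK5RAP3, or 62.1% of the control level in CPM (edgeR, log2 change -0.69, SE 0.08, adjusted p = 0.000163). All 8 noradrenergic neuroblastoma markers had counts, and their summed level was 7450 and 7970 CPM in shControl and 4570 and 4710 CPM in shCDK5RAP3. Most of this sum was MYCN, with 4674 and 4921 CPM in shControl and 2813 and 2881 CPM in shCDK5RAP3. The log2 changes of the 8 markers ran from -2.27 in CHGA to -0.11 in GATA3. All 6 fibroblast markers also had counts, with sums of 484 to 505 CPM in shControl and 170 to 181 CPM in shCDK5RAP3. Lists of Schwann cell, leukocyte, epithelial, endothelial and astrocyte markers summed to 1.19 to 8.12 CPM in every library, with SOX10, CD3E and CDH1 at 0. Both main marker sums moved with the group, and their part in the differences below was not tested.

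The 5 metallothioneins that passed the filter on low counts were higher in both shCDK5RAP3 libraries than in either shControl library. MT1E and MT1G passed it only through their shCDK5RAP3 counts, so for these genes being tested already required a higher level there. MT1E had 12 and 6 counts in shControl and 112 and 121 in shCDK5RAP3, which is 0.311 ± 0.147 against 4.01 ± 0.118 CPM (SD, n = 2), a 12.9-fold difference. MT1F had 11 counts in each shControl library and 76 and 88 in shCDK5RAP3, or 0.379 ± 0.00131 against 2.82 ± 0.221 CPM (SD, n = 2), 7.43-fold higher. Both genes were low in shControl, with 6 to 12 counts per library, though above the limit of 0.101 to 0.105 CPM for a count of 0. In neither gene did the groups overlap. MT1E and MT1F encode type 1 metallothioneins, closely related proteins that differ mainly in where and how strongly they are induced.

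MT1X, another type 1 gene, had 137 and 143 counts in shControl and 558 and 586 in shCDK5RAP3. Its level was 4.83 ± 0.130 against 19.7 ± 0.187 CPM (SD, n = 2), 4.08-fold higher, and its log2 change of 2.03 (SE 0.14) had the smallest standard error among the tested metallothioneins. The replicates of MT1X lay close together in both groups, far nearer to each other than the groups were. A rise of at least 2 on the log2 scale was seen in 202 of the 18775 tested genes, or 1.08%. MT1X was chosen with this contrast in view, so nothing is read from its place among them.

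MT2A, the type 2 gene and the most counted metallothionein in shControl, had 361 and 272 counts there and 552 and 495 in shCDK5RAP3. Its level was 10.9 ± 2.21 against 18.0 ± 1.84 CPM (SD, n = 2), 1.65-fold higher, with a log2 change of 0.72 (SE 0.16). The groups did not overlap, but MT2A had the smallest change of the 5 tested metallothioneins, and its replicates differed more than those of MT1X.

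MT1G was almost silent in shControl, with 0 and 2 counts, and had 31 and 18 counts in shCDK5RAP3. The summed counts of 49 against 2 give a ratio of 24.4 with a 95% exact counting interval of 6.41 to 207. Both shCDK5RAP3 libraries were above both shControl libraries, while the size of the difference is poorly fixed at this depth. MT1M had 3 counts in the first shControl library and none elsewhere, and MT3 had 1 count in the second shCDK5RAP3 library and none elsewhere. Both were at or under the limit of a count of 0, so no fold is given for either.

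**Figure D2:**
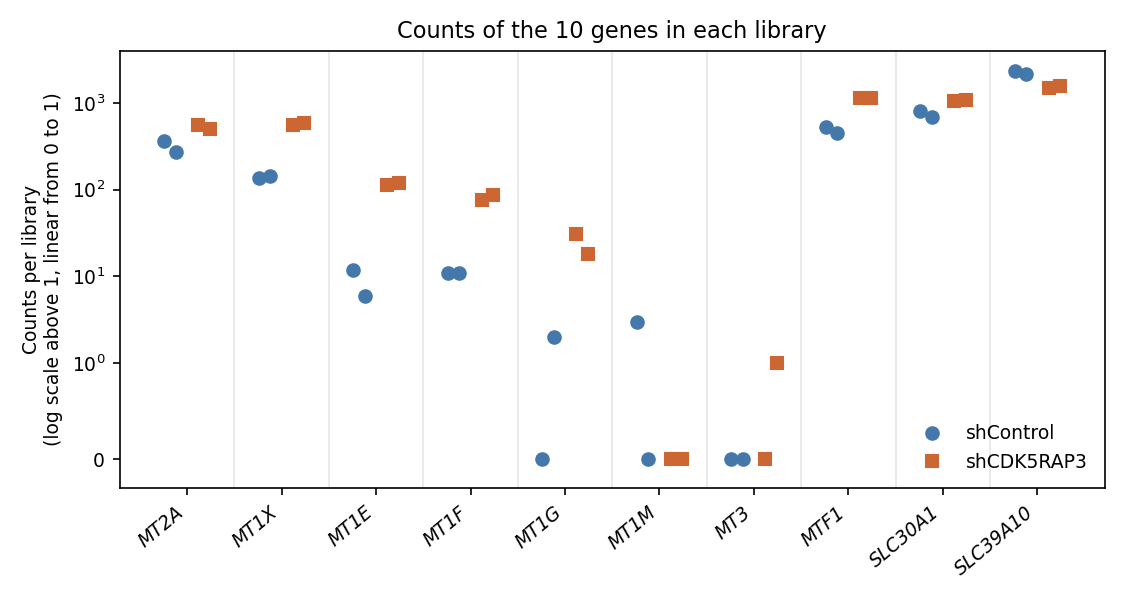
Counts of the 10 genes in each library, on a log axis that is linear from 0 to 1, with circles for shControl and squares for shCDK5RAP3. MT1E, MT1F, MT1G, MT1X, MT2A, MTF1 and SLC30A1 have both squares above both circles, SLC39A10 has both below, and MT1M and MT3 have at most 3 counts in any library.

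Of the 10 genes, 8 passed the filter on low counts, and MT1E and MT1G did so only through the shCDK5RAP3 libraries. The 8 were 7 higher and 1 lower in shCDK5RAP3, and all passed edgeR's adjusted threshold of 0.05. The groups did not overlap in any of the 8. The same held for 10 of 11 tested SLC39 genes and 12 of 13 tested genes of copper handling. The share of all tested genes without overlap was not counted. Across the table, 41.5% of 18775 tested genes passed, 19.7% higher and 21.8% lower, with a median log2 change of 0.00 against 1.62 over the 8 genes. Because this contrast was used to choose the genes, nothing is read from their count. Without the first shCDK5RAP3 library the count was 6, with MT1G and MT2A no longer past the threshold, and without the second it was also 6, with MT2A and SLC30A1 lost. No direction changed in either. With no filter on low counts it was 5, with MT1G, MT2A and SLC30A1 lost. The number of all genes called fell from 7792 to 4836 and 3752 without the first and the second shCDK5RAP3 library, and to 4488 with no filter.

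The remaining metallothioneins had almost no counts. Of the 12 annotated genes, MT1A, MT1B, MT1H, MT1HL1 and MT4 had 0 counts in all 4 libraries, although MT1A, MT1B and MT1H lie among the genes that were higher. MT1H (chr16:56669814-56671129, plus strand) lies beside MT1G (chr16:56666731-56668065, minus strand), which had 31 and 18 counts in shCDK5RAP3. Of 9 metallothionein pseudogenes, 8 had no counts and MT1XP1, on chromosome 1, had 1, 1, 2 and 0. The higher counts were thus seen in 5 genes, with 0 to 3 counts per library at the other 7.

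Metallothionein genes are similar in sequence, and reads can be assigned to the wrong copy. Of all 50-base words in their annotated GENCODE 29 transcripts, 81.7% occurred in no other gene for MT1X, 83.5% for MT1G, 92.9% for MT1E, 97.0% for MT2A and 98.8% for MT1F. With 100-base words the share was 100% for MT1E, MT1F, MT1G and MT2A and 88.7% for MT1X, which shared words only with the gene model AC026461.1. No source used here gives the read length or the handling of reads with several hits, so the split between MT1X and MT1G and their relatives is less certain than that of MT2A and MT1F.

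Summed over all 12 genes, the metallothionein pool was 18.1 and 14.9 CPM in shControl and 46.6 and 44.2 CPM in shCDK5RAP3. The mean was 16.5 ± 2.25 against 45.4 ± 1.63 CPM (SD, n = 2), a 2.75-fold difference and a gain of 28.9 CPM. MT1X made up 51.4% of the gain, MT2A 24.6%, MT1E 12.8%, MT1F 8.45% and MT1G 2.81%. The genes with the largest folds, MT1G and MT1E, therefore added less RNA than MT1X and MT2A, which started higher.

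The make-up of the pool shifted along with its size. MT2A held 68.9% of metallothionein counts in the first shControl library (Wilson 95% interval 64.8% to 72.7%) and 62.7% in the second (58.0% to 67.1%). It held 41.5% in the first shCDK5RAP3 library (38.9% to 44.2%) and 37.8% in the second (35.2% to 40.5%). MT1X held 26.1% and 32.9% in shControl and 42.0% and 44.8% in shCDK5RAP3. The intervals of MT2A did not overlap between the groups. They cover counting error only, and no test across libraries was made because the genes were chosen in this contrast. MT1E took 1.38% to 2.29% of the pool in shControl and 8.43% to 9.24% in shCDK5RAP3.

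**Figure D3:**
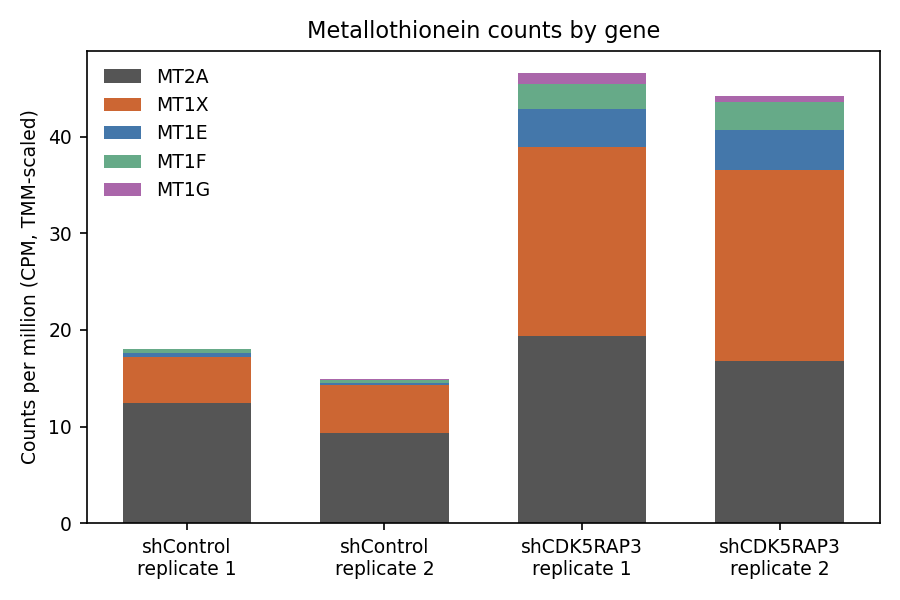
Stacked bars of TMM-scaled CPM of 5 metallothionein genes in each of the 4 libraries. The bars reach about 18.1 and 14.9 CPM in shControl and 46.6 and 44.2 CPM in shCDK5RAP3, and the MT1X segment becomes as large as the MT2A segment in the latter.

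Levels of different genes were compared per kilobase of annotated exon. On that scale MT2A was the highest metallothionein in shControl, at 8.41 ± 1.70 CPM per kb, above MT1X at 2.72 ± 0.0731, MT1E at 0.295 ± 0.140, MT1F at 0.201 ± 0.000696 and MT1G at 0.0459 ± 0.0649 (SD, n = 2). The libraries of MT1E and MT1F overlapped there, and the other neighbours in the order did not. In shCDK5RAP3 the order was MT2A at 13.9 ± 1.42, MT1X at 11.1 ± 0.105, MT1E at 3.81 ± 0.112, MT1F at 1.49 ± 0.117 and MT1G at 1.13 ± 0.450 CPM per kb (SD, n = 2). The libraries of MT1F and MT1G overlapped in shCDK5RAP3, and the other neighbours did not on this length. The place of MT1F depended on the length. With the longest protein-coding transcript as length, MT1F stood at 0.549 and MT1E at 0.427 CPM per kb in shControl, the reverse of the order above. In shCDK5RAP3 the values on that length were 5.5 for MT1E, 4.09 for MT1F and 1.35 for MT1G.

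The order of MT1X and MT2A in shCDK5RAP3 depended on the length used. The exons of MT1X include a retained intron in GENCODE 29, and with the longest protein-coding transcript as length MT1X stood at 36.6 and MT2A at 22.9 CPM per kb in shCDK5RAP3, against 8.98 and 13.9 in shControl. The ratio of MT1X to MT2A was higher in shCDK5RAP3 with either length, which cancels between libraries. It was 0.554 and 0.768 in shControl and 1.48 and 1.73 in shCDK5RAP3 with the coding transcript, and 0.278, 0.385, 0.741 and 0.867 with all exons.

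MTF1 transcripts were also more abundant in shCDK5RAP3. MTF1 had 525 and 454 counts in shControl and 1138 and 1131 in shCDK5RAP3. This is 16.9 ± 1.79 against 39.0 ± 1.15 CPM (SD, n = 2), 2.31-fold higher, with a log2 change of 1.21 (SE 0.11). The replicates differed far less than the groups, and per kilobase of exon MTF1 went from 2.10 ± 0.223 to 4.87 ± 0.144 CPM (SD, n = 2). MTF1 is regulated largely through zinc binding and nuclear entry of the protein, which RNA counts do not show.

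The exporter and the importer moved in opposite directions. SLC30A1, which moves zinc out of the cell, had 798 and 682 counts in shControl and 1042 and 1070 in shCDK5RAP3, or 25.5 ± 2.92 against 36.3 ± 0.232 CPM (SD, n = 2), 1.42-fold higher with a log2 change of 0.51 (SE 0.10). SLC39A10, which brings zinc into the cytosol, had 2330 and 2140 counts in shControl and 1488 and 1564 in shCDK5RAP3, or 77.1 ± 4.90 against 52.5 ± 0.529 CPM (SD, n = 2). It stood at 68.1% of its control level, with a log2 change of -0.55 (SE 0.07). In both genes the shControl replicates were further apart than the shCDK5RAP3 replicates, and the groups did not overlap. Per kilobase of exon, SLC39A10 exceeded SLC30A1 in shControl, at 11.1 ± 0.708 against 4.66 ± 0.533 CPM, and the distance narrowed to 7.59 ± 0.0765 against 6.64 ± 0.0424 CPM in shCDK5RAP3 (SD, n = 2).

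Other transporters were taken from the whole SLC30 and SLC39 families. Of the 10 SLC30 genes (ZnT proteins, which move zinc out of the cytosol), 7 were tested, with 5 higher, 1 lower and 1 that did not pass, where 19.7% of all tested genes were higher and 21.8% lower. Leaving out SLC30A1, 4 of 6 were higher and 1 lower, with a median log2 change of 0.52 against 0.00 over all tested genes. With no filter on low counts 3 of the family were called in place of 6. SLC30A7, a zinc carrier of the Golgi, had 741 and 704 counts in shControl and 1400 and 1512 in shCDK5RAP3, 24.9 ± 0.989 against 50.1 ± 1.47 CPM (SD, n = 2; edgeR, log2 change 1.01, SE 0.09, adjusted p = 3.5e-05). Its groups were far apart compared with its replicates.

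SLC30A5 and SLC30A6, which form a heteromeric zinc carrier of the early secretory pathway, rose by 0.57 and 0.48 on the log2 scale (edgeR adjusted p = 0.000225 and 0.00379). SLC30A5 stood at 64.2 ± 2.39 against 95.1 ± 3.13 CPM (SD, n = 2). SLC30A6 was no longer called without the second shCDK5RAP3 library (edgeR adjusted p = 0.0956) or with no filter on low counts (0.0846).

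SLC30A3, the zinc carrier of synaptic vesicles, had few counts, 11 and 18 in shControl and 63 and 95 in shCDK5RAP3, with a log2 change of 2.43 (SE 0.37, edgeR adjusted p = 0.000883). It overlaps DNAJC5G on the other strand, which had 0 to 11 counts. SLC30A9, a mitochondrial zinc carrier, fell by 0.37 on the log2 scale (edgeR adjusted p = 0.00301). Its call was lost without the first shCDK5RAP3 library (log2 change -0.28) and with no filter on low counts (edgeR adjusted p = 0.0513). SLC30A4, an exporter of endosomal vesicles, had a log2 change of -0.48 and did not pass (edgeR adjusted p = 0.0591). SLC30A2 and SLC30A8 had no counts and SLC30A10 had 2 to 7 per library.

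The importers showed no common direction. Of the 14 SLC39 genes (ZIP proteins, which bring zinc into the cytosol), 11 were tested, with 4 higher, 3 lower and 4 that did not pass, beside 19.7% higher and 21.8% lower of all tested genes. Leaving out SLC39A10, 4 of 10 were higher and 2 lower, with a median log2 change of 0.08. The family count of 7 called genes was 4 without the second shCDK5RAP3 library and 3 with no filter on low counts. SLC39A6, the importer that is most similar to SLC39A10 and pairs with it, was higher, at 97.0 ± 5.70 against 150 ± 2.41 CPM (SD, n = 2; edgeR, log2 change 0.63, SE 0.07, adjusted p = 0.000123). The 2 partners therefore changed in opposite directions, SLC39A6 with 2922 and 2702 against 4332 and 4388 counts.

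SLC39A11 was the most reduced importer, at 21.7 ± 2.17 against 9.66 ± 0.390 CPM (SD, n = 2; edgeR, log2 change -1.17, SE 0.13, adjusted p = 0.00014). SLC39A4, the importer of dietary zinc in the gut, fell by 0.87 on the log2 scale (edgeR adjusted p = 0.00242). Its call was lost with no filter on low counts (edgeR adjusted p = 0.0628). SLC39A7, which releases zinc from the endoplasmic reticulum, had a log2 change of 0.83 (edgeR adjusted p = 0.00317). Its counts were 743 and 1060 in the shCDK5RAP3 libraries, and the call was lost without the second of these (log2 change 0.58). It was also lost with no filter on low counts (edgeR adjusted p = 0.098). SLC39A7 also overlaps RXRB on the other strand, which had 312 to 436 counts.

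SLC39A9 and SLC39A1 rose by 0.32 and 0.20 on the log2 scale (edgeR adjusted p = 0.00565 and 0.029). Each was lost on leaving out either shCDK5RAP3 library, at log2 changes of 0.28 and 0.36 for SLC39A9 and 0.23 and 0.17 for SLC39A1. SLC39A1 was lost too without either shControl library (log2 change 0.19 and 0.20). With no filter on low counts both were lost (edgeR adjusted p = 0.0562 and 0.0773). SLC39A1 was also lost with library size alone (edgeR adjusted p = 0.051) and in DESeq2 (adjusted p = 0.056). SLC39A9 overlaps ERH and SLC39A1 overlaps CREB3L4, both on the opposite strand and both well counted, and no source used here says whether counting used the strand, so reads of these partners cannot be told apart. SLC39A3, SLC39A8, SLC39A13 and SLC39A14 did not pass, with log2 changes of 0.23, -0.27, -0.23 and -0.05. SLC39A12 had no counts, and SLC39A2 and SLC39A5 had at most 5 per library.

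**Figure D4:**
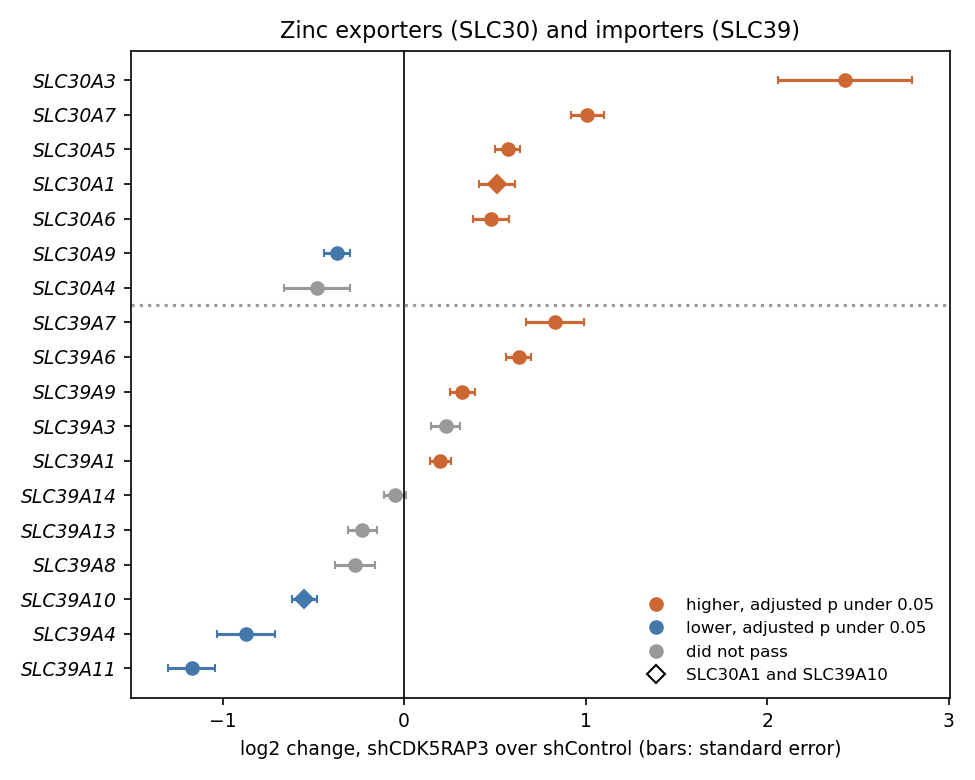
Log2 change from shControl to shCDK5RAP3, with standard errors, of the 18 tested SLC30 exporters and SLC39 importers, coloured by direction where the edgeR adjusted p was under 0.05, with diamonds for SLC30A1 and SLC39A10. SLC30A3 is highest at 2.43 and SLC39A11 lowest at -1.17, and SLC30A4, SLC39A3, SLC39A8, SLC39A13 and SLC39A14 did not pass.

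Other genes of zinc sensing and delivery had few counts or small changes. GPR39, a receptor that senses zinc outside the cell, had no counts in shControl and 3 and 7 in shCDK5RAP3. TMEM163, a zinc exporter of vesicles, had 2 and 12 counts in shControl and none in shCDK5RAP3, and neither gene passed the filter on low counts. CBWD1 and CBWD2, which belong to the zinc metallochaperone family, had log2 changes of 0.31 and 0.36 (edgeR adjusted p = 0.00769 and 0.0104). They have near-identical copies among which reads may be split. Neither was called without the first shCDK5RAP3 library (log2 change 0.33 and 0.29) or without the second (0.29 and 0.42). CBWD2 was not called with no filter on low counts (edgeR adjusted p = 0.0647).

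Of 4 further genes that have been reported as MTF1 targets, 1 was higher, 1 was lower and 2 did not pass, with a median log2 change of -0.15, where 41.5% of all tested genes passed. GCLC, the catalytic subunit of the enzyme that begins glutathione synthesis, had a log2 change of 0.00 (SE 0.09, edgeR adjusted p = 0.99), with 1712 and 2015 counts in shControl and 1788 and 1944 in shCDK5RAP3. SLC40A1, the iron exporter ferroportin, had 58 to 89 counts per library and a log2 change of -0.30 (edgeR adjusted p = 0.408). PGF, a growth factor of the VEGF family, fell by 0.53 on the log2 scale (edgeR adjusted p = 0.017). Its call was lost without the second shCDK5RAP3 library (log2 change -0.42) and with no filter on low counts (edgeR adjusted p = 0.0706). SELENOH, a nucleolar selenoprotein, had a log2 change of 0.27 just past the threshold (edgeR adjusted p = 0.0478). This call was lost without the first shControl library (log2 change 0.17) and without the first or the second shCDK5RAP3 library (0.39 and 0.15). It was also lost with library size alone (edgeR adjusted p = 0.0664) and with no filter on low counts (0.29). Neither DESeq2 (adjusted p = 0.0524) nor limma-trend (adjusted p = 0.0529) called SELENOH.

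Copper is bound by metallothioneins as well, and 13 of 15 listed genes of copper handling were tested, with 5 higher, 4 lower and 4 that did not pass, and a median log2 change of 0.15. Of all tested genes 19.7% were higher and 21.8% lower. The 9 calls became 4 and 3 without the first and the second shCDK5RAP3 library, 3 with no filter on low counts and 4 at an adjusted p under 0.01. The largest change was in STEAP3, a reductase that acts on iron and copper, which had 558 and 452 counts in shControl and 73 and 83 in shCDK5RAP3 (edgeR, log2 change -2.70, SE 0.18, adjusted p = 1.0e-05). The copper-exporting ATPases were lower too. ATP7A fell by 0.77 and ATP7B by 0.88 on the log2 scale (edgeR adjusted p = 5.5e-05 and 0.0159). ATP7B was not called without either shCDK5RAP3 library (log2 change -0.73 and -1.04) or without the first shControl library (-0.64). With no filter on low counts ATP7B was not called either (edgeR adjusted p = 0.105). SCO1, which delivers copper to cytochrome c oxidase, rose by 0.45 (edgeR adjusted p = 0.0033). The annotated span of ATP7A overlaps PGK1 on the same strand, which had 12969 to 22514 counts.

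The metallothionein cluster was also set against its surroundings, a comparison added after the data had been seen. Within 500 kb of the cluster lie 11 protein-coding genes outside the family, of which 10 were tested, with 6 higher, 1 lower and 3 that did not pass, and a median log2 change of 0.24. Of all tested genes 41.5% were called, with 19.7% higher and 21.8% lower. Without the second shCDK5RAP3 library, with no filter on low counts or at an adjusted p under 0.01, 4 rather than 7 neighbours were called. BBS2, 44.8 kb before the cluster, had a log2 change of -0.09 (edgeR adjusted p = 0.461), and NUP93, 45.9 kb beyond it, had a log2 change of 0.37 (edgeR adjusted p = 0.00134). NUP93 encodes a subunit of the nuclear pore, and its counts were 4395 and 4384 in shControl and 5667 and 5671 in shCDK5RAP3.

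GNAO1, a G protein subunit abundant in neurons, was the neighbour that fell, by 0.61 on the log2 scale (edgeR adjusted p = 0.000158). SLC12A3, a sodium-chloride cotransporter of the kidney, had 6 and 0 counts in shControl and 21 and 26 in shCDK5RAP3. It passed the filter on low counts only through the shCDK5RAP3 libraries, and its call was lost on leaving out the second shControl library or either shCDK5RAP3 library. The call was also lost with no filter on low counts (edgeR adjusted p = 0.184). HERPUD1, a protein of the degradation pathway of the endoplasmic reticulum, and CPNE2, a calcium-binding copine, rose by 0.39 and 0.51 (edgeR adjusted p = 0.00194 and 0.00136). Apart from SLC12A3, at 2.91, the tested neighbours had log2 changes of -0.61 to 0.51. The metallothioneins were chosen with this contrast in view, so nothing is read from their place above these neighbours.

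**Figure D5:**
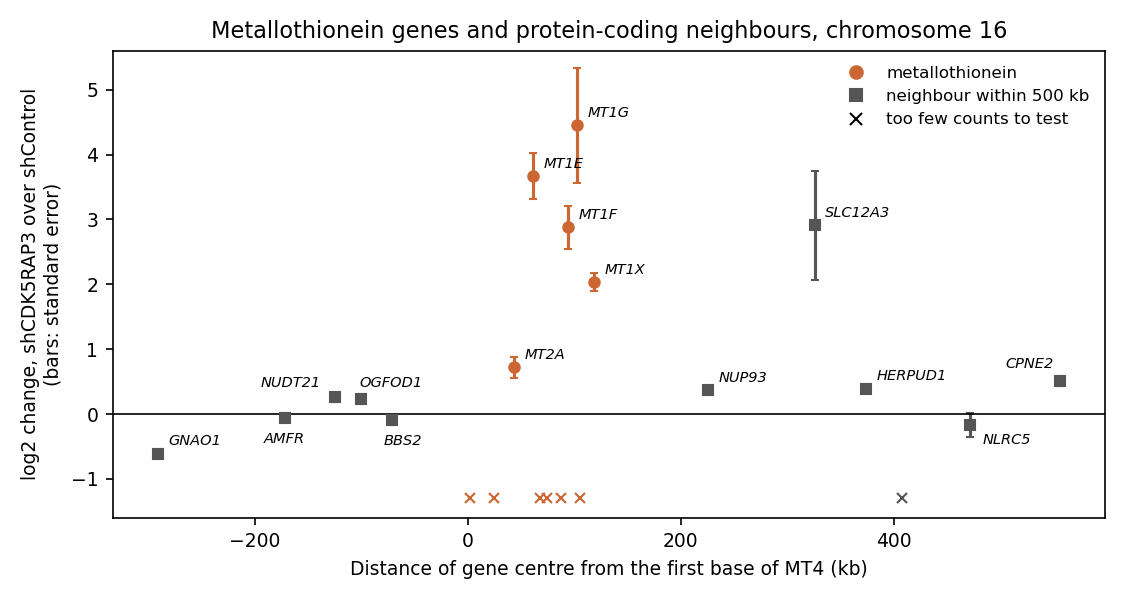
Log2 change from shControl to shCDK5RAP3, with standard errors, of the metallothionein genes of the chromosome 16 cluster (circles) and of protein-coding neighbours within 500 kb (squares), by distance in kb from MT4, with crosses for genes with too few counts to test. The tested metallothioneins lie between 0.72 and 4.45, where the value of MT1G rests on 2 control counts, and all squares except SLC12A3 lie between -0.61 and 0.51.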

How the data were processed

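RNA sequencing was done on 4 libraries, 2 shControl and 2 shCDK5RAP3. Per the labels' protocols, RNA was extracted with TRIzol and libraries were made with an Illumina TruSeq kit. The deposited table holds raw counts, as whole numbers, for each Ensembl identifier. StringTie, HISAT2 2.2.0 and hg38 are named, per the submitters' processing notes. No source used here gives the annotation release, strand setting, read length or handling of reads with several hits.

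Sample titles gave the groups, and sample descriptions gave the match of columns. Identifiers were named from GENCODE 29 (56591 of 64252 rows), and the 7661 others, 1.82% to 1.90% of counts, stayed in library sizes and tests. Where a symbol had several rows, that with the highest mean count was used. The test was edgeR 4.0.16 in R 4.3.3, with TMM factors, its filter by group, a quasi-likelihood fit without a replicate block, and Benjamini-Hochberg adjustment over 18775 genes at 0.05. The biological coefficient of variation was 0.0959. Over genes with a mean count of at least 10, chi-square per degree of freedom was 8.65 and 6.77 between replicates and 77.4 to 88.0 between groups, so no library was a copy of another.

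The genes and lists were chosen with earlier results of these data known. Named genes are CDK5RAP3, the 10 genes, every tested gene of the metallothionein, SLC30, SLC39, zinc sensing and MTF1 target lists, and the 4 copper genes with the largest change past the threshold. Neighbours within 500 kb were added after seeing the data. Lengths are unions of GENCODE 29 exons. Promoters are RefSeq windows of GRCh38.p14. Intervals of shares are Wilson 95%, and that of a ratio of counts is exact. Alternatives were other scaling factors, filters and a threshold of 0.01, DESeq2 1.42.0, a robust fit, limma-trend (limma 3.58.1), a replicate block, summed rows, other lengths, a shorter motif and each library left out. The scripts were tested on simulated data.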

Additional observations from a re-analysis of the deposited data

How the results depend on the processing

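The 8 tested genes of the 10 kept their direction in every alternative that gave a value. MT1M and MT3, which did not pass the filter on low counts, were not followed. Of their 111 values under the alternatives, 104 stayed on the same side of the threshold and 7 lost the call, all under no filter or without an shCDK5RAP3 library. For the other named genes 459 values stayed, 47 lost and 11 gained a call, and no called value changed sign. MT1G has no value with a minimum of 1 CPM in 2 libraries, which left 7 of the 10 called. Without a filter, 4488 genes were called, 1966 higher and 2522 lower, and 5 of the 10. At an adjusted p under 0.01, 2421 were higher. Leaving out each library in turn gave 3752 to 7329 genes called, 1556 to 3516 higher and 2196 to 3813 lower, and 6 to 8 of the 10. DESeq2 called 6331. Of all calls 47.5% were higher, 43.8% with library size alone and 51.2% with upper-quartile factors, while the median change moved only between -0.032 and 0.028. With lengths of the longest transcript the order of MT1X below MT2A stayed, and with the coding transcript it turned in shCDK5RAP3 only.

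The replicate numbers of the titles were also fitted as a block, which called 9148 genes and 8 of the 10, and 10 rather than 7 SLC39 genes. Deviations of same-numbered libraries correlated at 0.147 over 13893 genes, but with only 2 pairs the numbers are not taken to pair the libraries.

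Depth limits MT1E, MT1F and MT1G, with 0 to 12 control counts, and leaves MT1M and MT3 undetermined. With 2 libraries a group, no exact permutation test over libraries could reach 0.05.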
